A study of Mus musculus with 14 samples.

Results

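Basement membranes are thin sheets of matrix that surround each smooth muscle cell of the aortic media and underlie its endothelium. Collagen IV chains and laminin trimers, made of an alpha, a beta and a gamma chain, each assemble into a network, and nidogen and the heparan sulfate proteoglycan perlecan connect the networks to each other. Cells hold on to these sheets through integrins and dystroglycan. The 10 genes described here were picked by name from the gene table: the collagen IV chains Col4a1, Col4a2 and Col4a5, the laminin chains Lama4, Lama5, Lamb1, Lamb2 and Lamc1, the linker Nid1 (nidogen 1) and Hspg2 (perlecan). All 10 were found among 32289 genes, and all 10 reached 1 FPKM in 3 libraries or more, the filter that 13294 genes passed.

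The RNA came from the ascending aorta of C57BL/6 mice, taken after 6 weeks. β-Aminopropionitrile (BAPN) blocks lysyl oxidases, the enzymes that join collagen and elastin molecules into a stable matrix, and is used to weaken the aortic wall. The groups were BAPN+SB273005 (4 libraries), BAPN+Cilengitide (3), BAPN alone (4) and PBS (3), so both inhibitor groups carried BAPN as well. Cilengitide is a cyclic peptide that binds αV integrins, and the labels name SB273005 as a second αV inhibitor. No group received an inhibitor without BAPN, and the labels give neither a dose nor a genetic alteration. They do not say that samples came from separate animals or whether tissue was pooled, and the p-values therefore reflect spread among these libraries alone. The design asks how BAPN changed the aorta and how the aorta of BAPN-fed mice differed with each inhibitor.

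Libraries held 49027885 to 72584877 estimated counts, and the members 944 (Lamb1, PBS replicate 1) to 124326 (Col4a1, BAPN replicate 1) each. Smooth muscle markers, whose 10 genes summed to 1199 to 7078 FPKM in BAPN+SB273005, 6134 to 8134 in BAPN+Cilengitide, 7052 to 10716 in BAPN and 9035 to 10813 in PBS, were abundant in the tissue labelled ascending aorta, with the lowest sum in BAPN+SB273005 replicate 2. BAPN+SB273005 replicate 2 stood apart, with Acta2 at 548 FPKM while replicates 1, 3 and 4 of its group had 2724 to 3994, and mitochondrially encoded genes took 37.2% of its summed FPKM against 12.7% to 26.7% in the other 13 libraries. The libraries also fell into a set of 6 (PBS and BAPN+SB273005 replicates 1 to 3) with 0 counts of the class II gene H2-Ea and 7.73 to 11.6 FPKM of the kidney gene Umod, and a set of 8 with 83 to 130 counts and 19.8 to 25.8 FPKM. These sets come from the data and not from the labels. For BAPN and for BAPN+Cilengitide against PBS, group and set cannot be told apart. BAPN+SB273005 has 3 of its 4 libraries in the other set from BAPN and BAPN+Cilengitide. It is the only group with libraries in both sets. A fit with the set as a term therefore estimates the set from replicate 4 against replicates 1 to 3 of this group. Other kidney genes were found too: 6 kidney markers summed to 199 to 352 FPKM per library, with Kap at a median of 215. Of 5 tested, edgeR called 1, 3 and 2 higher than in PBS in BAPN+SB273005, BAPN+Cilengitide and BAPN, against 7.82%, 3.98% and 0.181% of all genes. The source of this RNA, and its part in the levels below, was not tested.

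The regulatory windows of the genes whose results are set side by side below are printed first: the shared start region of the collagen IV pair, the 2 beta laminin genes and Nid1. They run from 250 bases before to 50 after the start in RefSeq (GRCm38.p6), 5′ to 3′ on the gene's strand. Capitals mark matches to the GC box (GGGCGG) or the CCAAT box on either strand. A window was found for 8 of the 10 members, all but Lama4 and Lamc1.
Col4a1 promoter (chr8:11312777-11313076, minus strand): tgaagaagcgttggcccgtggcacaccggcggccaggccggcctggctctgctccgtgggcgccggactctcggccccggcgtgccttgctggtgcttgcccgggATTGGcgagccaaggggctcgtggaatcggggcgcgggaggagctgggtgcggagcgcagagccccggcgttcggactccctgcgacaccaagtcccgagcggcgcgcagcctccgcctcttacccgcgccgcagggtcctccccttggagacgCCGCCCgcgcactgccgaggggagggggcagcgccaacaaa
Col4a2 promoter (chr8:11312555-11312854, plus strand): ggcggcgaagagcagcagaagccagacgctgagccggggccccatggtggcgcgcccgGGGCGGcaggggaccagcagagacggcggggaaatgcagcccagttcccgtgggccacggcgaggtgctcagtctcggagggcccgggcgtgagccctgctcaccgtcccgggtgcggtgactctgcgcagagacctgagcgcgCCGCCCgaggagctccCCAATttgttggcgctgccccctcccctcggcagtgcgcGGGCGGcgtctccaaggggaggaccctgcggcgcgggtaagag
Lamb1 promoter (chr12:31265043-31265342, plus strand): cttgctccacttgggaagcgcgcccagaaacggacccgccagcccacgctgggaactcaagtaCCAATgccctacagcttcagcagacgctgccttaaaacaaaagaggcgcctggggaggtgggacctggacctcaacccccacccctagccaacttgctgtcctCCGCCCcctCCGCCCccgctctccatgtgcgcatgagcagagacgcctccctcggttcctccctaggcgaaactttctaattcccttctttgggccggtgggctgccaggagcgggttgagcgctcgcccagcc
Lamb2 promoter (chr9:108479612-108479911, plus strand): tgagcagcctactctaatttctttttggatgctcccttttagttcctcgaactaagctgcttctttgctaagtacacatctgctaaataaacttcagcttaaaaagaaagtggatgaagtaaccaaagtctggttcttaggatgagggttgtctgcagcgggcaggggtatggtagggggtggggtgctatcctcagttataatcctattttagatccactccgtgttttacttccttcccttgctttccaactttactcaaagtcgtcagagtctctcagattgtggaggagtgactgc
Nid1 promoter (chr13:13437352-13437651, plus strand): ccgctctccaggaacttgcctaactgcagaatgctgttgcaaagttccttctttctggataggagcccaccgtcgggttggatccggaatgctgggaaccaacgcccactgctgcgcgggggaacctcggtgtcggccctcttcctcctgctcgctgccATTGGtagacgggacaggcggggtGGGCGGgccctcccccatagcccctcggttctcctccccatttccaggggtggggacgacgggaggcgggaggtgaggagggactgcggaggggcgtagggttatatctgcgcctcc

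Col4a1 and Col4a2 lie head to head on chromosome 8, and their windows share 78 bases. The annotated genes themselves overlap by 22 bases, and as no source used here gives the strand setting of the counting, reads from that overlap cannot be told apart. A GC box was present in 7 of the 8 windows, against 35.7% of 32851 RefSeq promoter windows of the same length, and a CCAAT box in 5 of 8, against 37.4%. A TATA box (TATAAA; 13.6% of all windows), a Smad box (GTCTAGAC; 0.213%) and a CArG box (1.63%) were found in 0 of the 8. A CTC box (CCCTNCCCC; 9.48%) was found in 2, those of Lama5 and Nid1. The Lamb2 window, with 44.0% G and C, held none of the 6 motifs, whereas the windows of Col4a1 and Lamb1 had 74.0% and 63.7% G and C, against a median of 52.7% over all windows. These are matches of letters and say nothing about binding.

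To compare genes with each other, each gene's FPKM was restated over its longest coding transcript. On that scale the median over 14 libraries was 197 for Col4a1, 193 for Col4a2, 151 for Lamb2, 93.7 for Hspg2, 63.2 for Col4a5, 51.1 for Lamc1, 41.8 for Nid1, 26.3 for Lama5, 20.3 for Lama4 and 8.52 for Lamb1. The collagen IV pair took ranks 1 and 2 and Lamb2 rank 3 in each of the 14 libraries. Below them the order varied: Hspg2 and Col4a5 ranked between 4 and 6, Lamc1 between 6 and 7, Nid1 between 5 and 9, Lama5 between 7 and 9, Lama4 between 7 and 10, and Lamb1 between 9 and 10. Neighbours in the middle of the order therefore did not part from each other in every library.

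**Figure D1:**
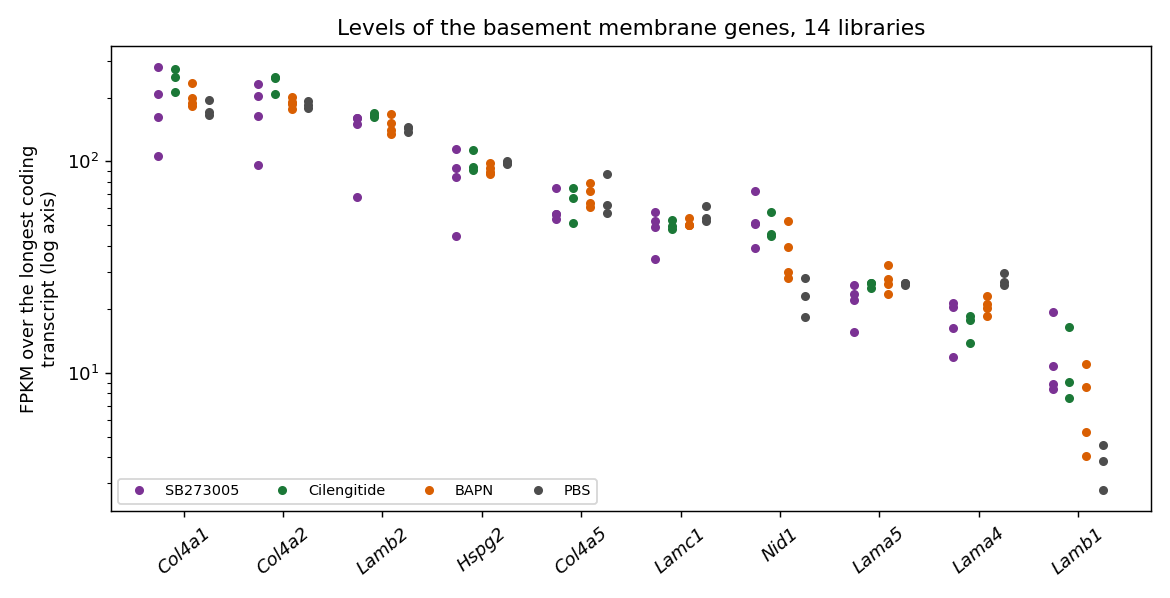
Level of each of the 10 genes in the 14 libraries (points), as FPKM restated over the longest coding transcript on a log axis, coloured by group. Col4a1, Col4a2 and Lamb2 lead in every library, and Lamb1 takes rank 9 or 10.

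BAPN+SB273005 replicate 2 was the lowest of all 14 libraries for 7 of the 10 members, both in FPKM and in CPM with TMM scaling (the trimmed-mean scaling between libraries that edgeR uses). The exceptions were Col4a5, Lamb1 and Nid1. Results on BAPN+SB273005 are therefore given with and without this library where it matters.

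The most abundant network chains did not pass the test in any comparison. Col4a1, one chain of the ubiquitous collagen IV trimer, had 248, 94.4, 144 and 185 FPKM in BAPN+SB273005, 223, 241 and 189 in BAPN+Cilengitide, 208, 177, 167 and 163 in BAPN, and 147, 152 and 172 in PBS. The 3 BAPN+Cilengitide libraries lay above the 3 PBS libraries, while BAPN+SB273005 held both the highest and the lowest value of the series. The log2 difference from PBS, from edgeR's quasi-likelihood fit with Benjamini-Hochberg adjustment over 13294 genes, was 0.14 ± 0.25 (SE) in BAPN+SB273005 (adjusted p = 0.753), 0.51 ± 0.27 in BAPN+Cilengitide (adjusted p = 0.306) and 0.19 ± 0.25 in BAPN (adjusted p = 0.86).

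Col4a2, its partner chain, had 227, 93.4, 160.4 and 198 FPKM in BAPN+SB273005, 241, 243 and 203 in BAPN+Cilengitide, 196, 182, 187 and 173 in BAPN, and 179, 174 and 189 in PBS. BAPN+Cilengitide libraries were above all those of BAPN and PBS, and BAPN+SB273005 overlapped every other group. Its log2 difference from PBS was −0.04 ± 0.22 in BAPN+SB273005, 0.38 ± 0.24 in BAPN+Cilengitide and 0.03 ± 0.22 in BAPN (edgeR adjusted p = 0.925, 0.407 and 0.982).

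Col4a5, a chain of other collagen IV trimers encoded on the X chromosome, had 54.8, 54.6, 52.1 and 72.5 FPKM in BAPN+SB273005, 50.0, 65.2 and 73.2 in BAPN+Cilengitide, 76.7, 62.2, 70.2 and 59.1 in BAPN, and 60.7, 55.3 and 85.0 in PBS. Every pair of groups overlapped. The log2 difference from PBS was −0.14 ± 0.19, −0.05 ± 0.20 and 0.00 ± 0.19 in the same order of groups (edgeR adjusted p = 0.679, 0.924 and 0.999).

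**Figure D2:**
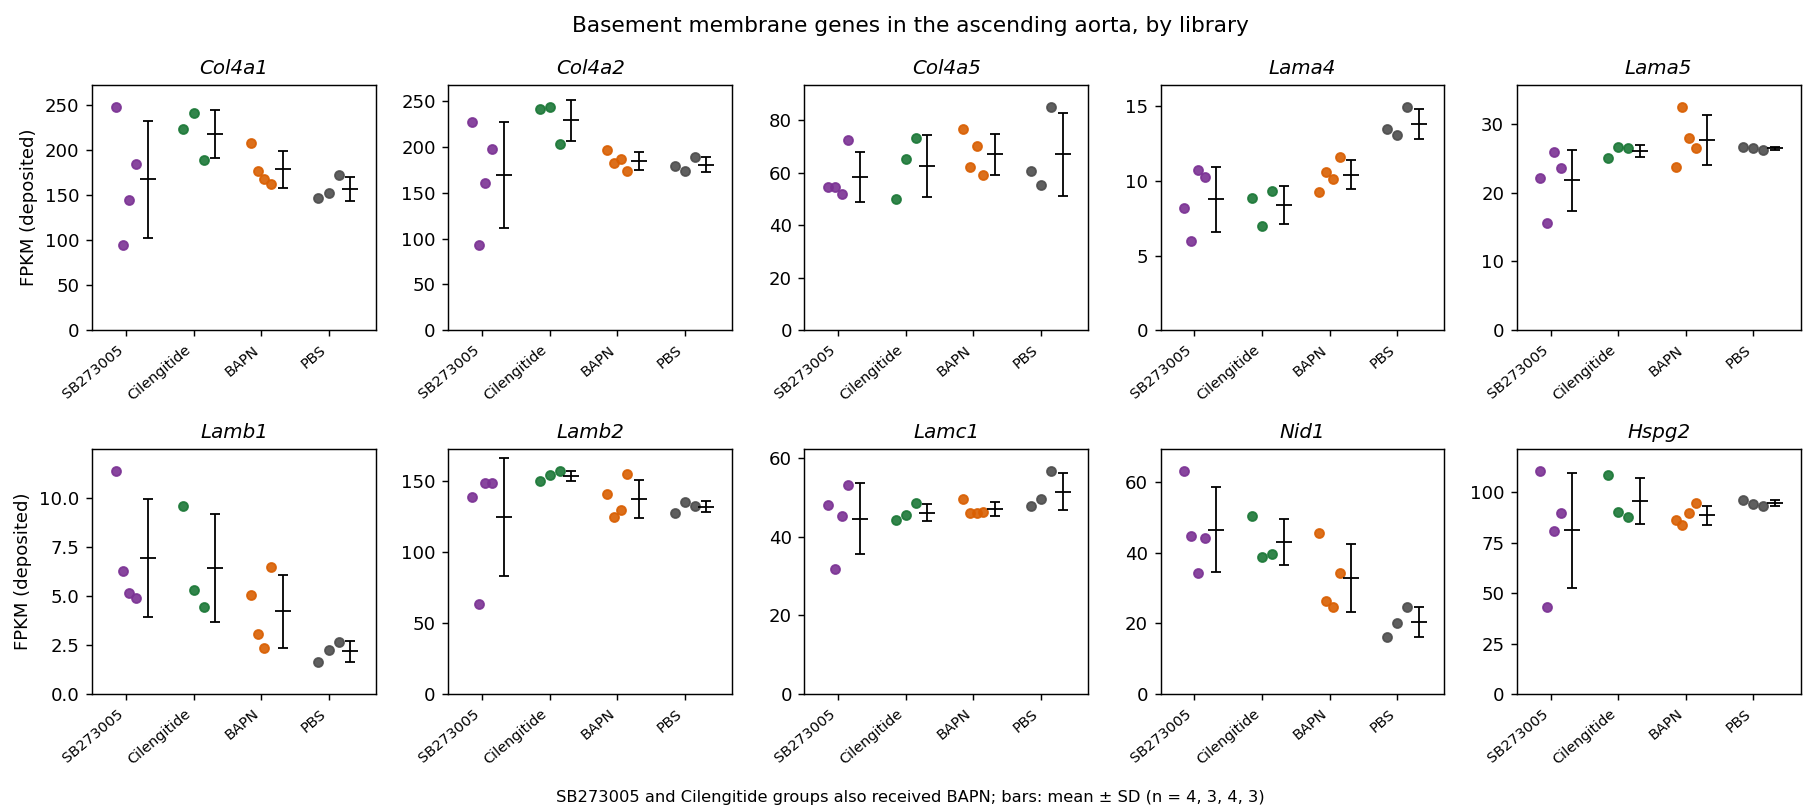
Deposited FPKM of each gene by library (points) in BAPN+SB273005, BAPN+Cilengitide, BAPN and PBS, with mean ± SD beside them (n = 4, 3, 4 and 3). Nid1 and Lamb1 have their lowest mean and Lama4 its highest in PBS, and 1 BAPN+SB273005 library is the lowest for 7 genes, most visibly Lamb2 (63.2) and Hspg2 (43.0).

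Of the 2 alpha laminin chains, Lama4 fell in both inhibitor groups against PBS and Lama5 did not pass. Lama4, the alpha chain of laminins of endothelial and muscle basement membranes (chr10:38965515-39110188, mm10), had 8.16, 5.96, 10.7 and 10.2 FPKM in BAPN+SB273005, 8.87, 6.95 and 9.34 in BAPN+Cilengitide, 9.26, 10.6, 10.1 and 11.6 in BAPN, and 13.4, 13.0 and 14.9 in PBS. The libraries of all 3 BAPN-fed groups were below the lowest PBS library. Lama4 fell by 0.61 ± 0.16 on the log2 scale in BAPN+SB273005 and by 0.68 ± 0.18 in BAPN+Cilengitide (edgeR adjusted p = 0.0313 and 0.0439). In BAPN the difference was −0.40 ± 0.16 and did not pass (edgeR adjusted p = 0.339). In bulk RNA, fewer cells of a type and less RNA per cell cannot be told apart.

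Lama5, the other widely expressed alpha chain, had 22.1, 15.6, 25.9 and 23.6 FPKM in BAPN+SB273005, 25.1, 26.6 and 26.5 in BAPN+Cilengitide, 23.7, 32.4, 27.9 and 26.4 in BAPN, and 26.6, 26.5 and 26.1 in PBS. In FPKM the 3 PBS libraries were nearly equal, and BAPN+SB273005 lay just below them with or without replicate 2. In CPM with TMM scaling PBS ran from 313 to 348 and BAPN+SB273005 reached 325, so the ranges overlapped. The log2 difference from PBS was −0.23 ± 0.15 in BAPN+SB273005, 0.02 ± 0.16 in BAPN+Cilengitide and 0.07 ± 0.15 in BAPN (edgeR adjusted p = 0.337, 0.963 and 0.929).

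Of the beta chains, the scarce one rose and the abundant one did not pass. Lamb1 (chr12:31265234-31329644, mm10) had 11.4, 6.28, 5.17 and 4.91 FPKM in BAPN+SB273005, 9.55, 5.28 and 4.43 in BAPN+Cilengitide, 5.02, 3.07, 2.36 and 6.45 in BAPN, and 1.62, 2.23 and 2.66 in PBS. Both inhibitor groups were wholly above PBS, and BAPN overlapped PBS through 1 library. The fitted level was 3.29-fold higher in BAPN+SB273005 than in PBS (log2 1.72 ± 0.41, edgeR adjusted p = 0.0178) and 3.01-fold higher in BAPN+Cilengitide than in PBS (1.59 ± 0.42, adjusted p = 0.0457). In BAPN the log2 difference of 0.95 ± 0.39 did not pass (edgeR adjusted p = 0.355).

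Lamb2, the beta chain typical of mature vessel and muscle basement membranes, had 139, 63.2, 149 and 149 FPKM in BAPN+SB273005, 150.3, 154 and 157 in BAPN+Cilengitide, 141, 125, 129.9 and 155 in BAPN, and 128, 135 and 133 in PBS. In FPKM, BAPN+Cilengitide was above PBS and above BAPN+SB273005 in every library. In CPM with TMM scaling it was still above PBS but overlapped BAPN+SB273005. Its log2 difference from PBS was −0.03 ± 0.22, 0.26 ± 0.24 and 0.06 ± 0.22 in BAPN+SB273005, BAPN+Cilengitide and BAPN (edgeR adjusted p = 0.938, 0.6 and 0.963).

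Lamc1, the gamma chain shared by most laminins, had 48.0, 31.9, 45.3 and 53.2 FPKM in BAPN+SB273005, 44.3, 45.6 and 48.5 in BAPN+Cilengitide, 49.7, 46.0, 46.1 and 46.2 in BAPN, and 47.9, 49.6 and 56.7 in PBS. Every pair of groups overlapped. The log2 difference from PBS was −0.16 ± 0.14, −0.12 ± 0.15 and −0.13 ± 0.14 (edgeR adjusted p = 0.513, 0.737 and 0.825).

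Nid1, which bridges laminin and collagen IV (chr13:13437551-13512269, mm10), had 63.2, 44.7, 34.2 and 44.1 FPKM in BAPN+SB273005, 50.5, 38.9 and 39.8 in BAPN+Cilengitide, 45.7, 26.3, 24.7 and 34.4 in BAPN, and 16.1, 20.3 and 24.6 in PBS. The BAPN-fed groups were all above PBS, although the lowest BAPN library hardly exceeded the highest PBS library. The fitted level was 2.38-fold higher in BAPN+SB273005 than in PBS (log2 1.25 ± 0.25, edgeR adjusted p = 0.00952) and 2.17-fold higher in BAPN+Cilengitide than in PBS (1.12 ± 0.27, adjusted p = 0.0299). In BAPN the log2 difference was 0.68 ± 0.25 (edgeR adjusted p = 0.272).

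Hspg2, the perlecan core protein, had 111, 43.0, 81.0 and 90.0 FPKM in BAPN+SB273005, 109, 90.4 and 88.0 in BAPN+Cilengitide, 86.2, 83.9, 89.9 and 94.6 in BAPN, and 96.3, 94.3 and 93.5 in PBS. All groups overlapped, and the 3 PBS libraries were again close together. The log2 difference from PBS was −0.17 ± 0.23, 0.06 ± 0.24 and −0.09 ± 0.23 (edgeR adjusted p = 0.661, 0.933 and 0.943).

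In BAPN+SB273005 against PBS, 3 of the 10 members passed, with 2 higher and 1 lower, against 13.2% of all genes tested (7.82% higher, 5.38% lower). The same 3 genes passed in BAPN+Cilengitide against PBS, against 5.58% of all genes (3.98% higher, 1.6% lower). In BAPN against PBS 0 passed with edgeR, against 0.233% of all genes (0.181% higher, 0.0527% lower), while 3 had an unadjusted p under 0.05 and DESeq2 and limma also called 0. The comparisons share the PBS libraries, so they are not independent of each other. The median log2 difference of the members was −0.09 in BAPN+SB273005, 0.16 in BAPN+Cilengitide and 0.05 in BAPN, beside 0.02, −0.02 and 0.00 over all genes tested.

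Counted by FPKM ranges that did not overlap PBS, 4 members stood apart in BAPN+SB273005 (Lamb1 and Nid1 above, Lama4 and Lama5 below), against 23.2% of all genes (9.15% above, 14% below). Of these, Lama5 overlapped PBS in CPM with TMM scaling. In BAPN+Cilengitide 6 did (Col4a1, Col4a2, Lamb1, Lamb2 and Nid1 above, Lama4 below), against 31.9% (13.5% above, 18.4% below), and in BAPN 2 did (Nid1 above, Lama4 below), against 14.6% (7.02% above, 7.56% below).

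The calls in BAPN+SB273005 against PBS did not rest on replicate 2: without it Nid1 was 1.24 ± 0.27 higher, Lamb1 1.74 ± 0.44 higher and Lama4 −0.49 ± 0.13 (edgeR adjusted p = 0.0153, 0.0259 and 0.0324). Nid1 passed whichever of the 14 libraries was left out. Lamb1 lost its call without PBS replicate 1 or 2 (adjusted p = 0.0625 to 0.0651), and Lama4 without BAPN+SB273005 replicate 1 or any PBS replicate (0.0506 to 0.102). Lama4 also lost it with no filter on low values (adjusted p = 0.0585) and with only the groups compared in the fit (0.119). Within the set of 6 libraries, BAPN+SB273005 replicates 1 to 3 against PBS gave 1.87 ± 0.35 for Lamb1 (edgeR adjusted p = 0.0367), 1.29 ± 0.29 for Nid1 (0.0628) and −0.68 ± 0.20 for Lama4 (0.12).

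For BAPN+Cilengitide against PBS, each of the 3 calls ended without some library. Nid1 lost its call without BAPN+Cilengitide replicate 1 or 2 or PBS replicate 1 or 2 (edgeR adjusted p = 0.0715 to 0.117). Lamb1 lost it without BAPN+SB273005 replicate 3, BAPN+Cilengitide replicate 1 or 2, BAPN replicate 1 or 2, or any PBS replicate (0.0503 to 0.188). Lama4 lost it without any BAPN+Cilengitide or PBS replicate or BAPN replicate 2, 3 or 4 (0.0544 to 0.169). With the library set as a term, none of the 3 passed (edgeR adjusted p = 0.267 for Nid1, 0.221 for Lamb1 and 0.182 for Lama4), and the log2 differences were 1.22, 2.22 and −0.999. That fit takes the set effect from BAPN+SB273005 replicate 4 against replicates 1 to 3. It therefore cannot decide whether the calls follow the set. With no filter on low values none of the 3 passed with edgeR (0.0641, 0.0848 and 0.0989), and Lamb1 did not pass with limma (0.067 and 0.0525 with pseudocounts of 1 and 0.1).

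**Figure D3:**
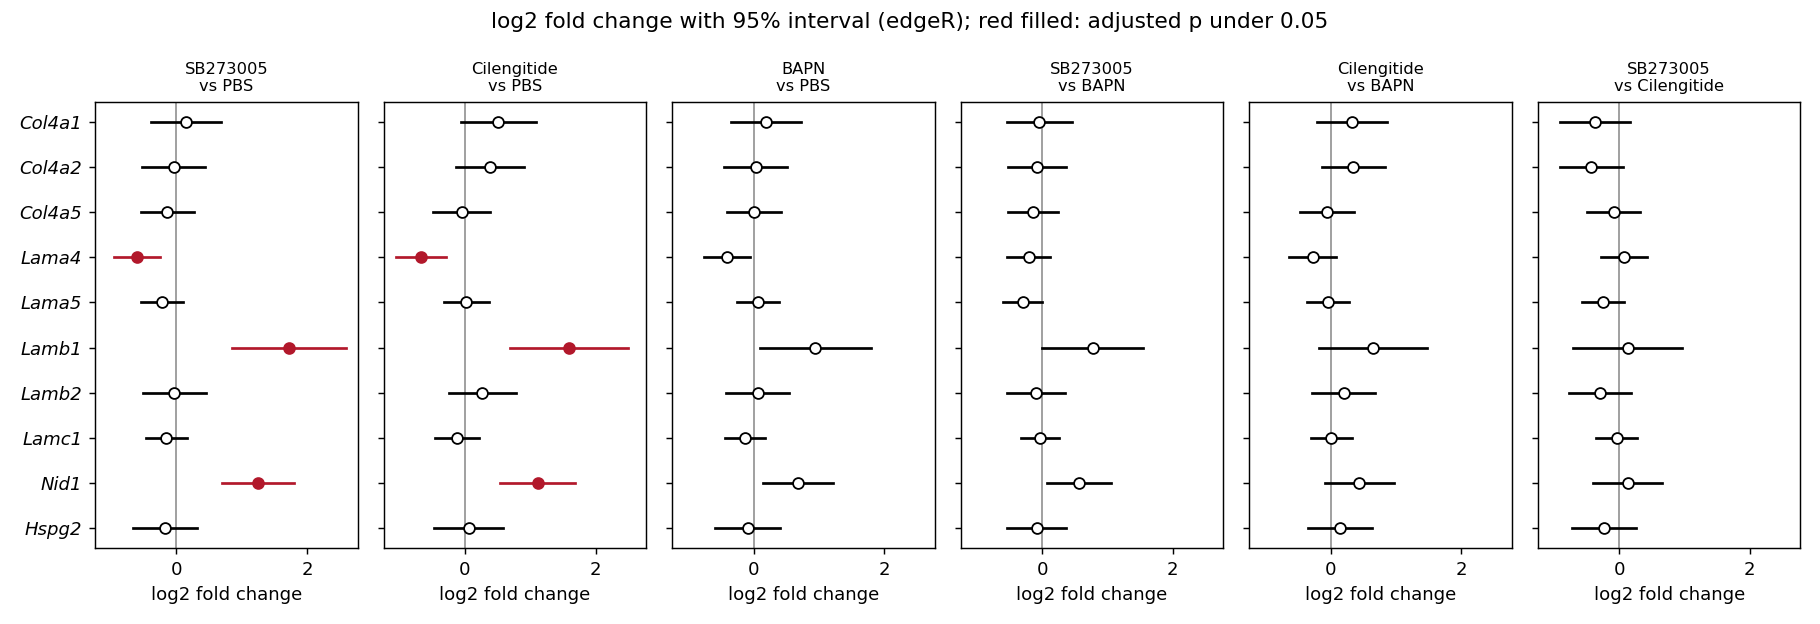
log2 fold change of each gene in 6 comparisons (points) with 95% intervals from edgeR, where a positive value is higher in the group named first and red filled points passed the adjusted threshold of 0.05. Passing values appear for Lama4, Lamb1 and Nid1 in the 2 inhibitor groups against PBS, and in no comparison with BAPN or between inhibitors.

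Against BAPN alone, neither inhibitor gave a member that passed. In BAPN+SB273005 against BAPN 0 of 10 passed with edgeR, as with DESeq2 and limma, against 0.0301% of all genes (0.00752% higher, 0.0226% lower), and 2 had an unadjusted p under 0.05: Nid1 (0.57 ± 0.23, adjusted p = 0.259) and Lamb1 (0.77 ± 0.36, adjusted p = 0.308). Lama4 differed by −0.20 ± 0.15 (edgeR adjusted p = 0.522). The 95% intervals still allow 1.06 higher for Nid1 and 1.55 higher for Lamb1 on the log2 scale. With the library set as a term, this comparison rests on BAPN+SB273005 replicate 4. The differences were then 0.49 ± 0.36 for Nid1, 0.28 ± 0.55 for Lamb1 and 0.03 ± 0.23 for Lama4, whose direction turned. No member had FPKM ranges apart, against 7.87% of all genes (1.56% above, 6.3% below).

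In BAPN+Cilengitide against BAPN 0 of 10 passed with edgeR, DESeq2 and limma, and 0 had an unadjusted p under 0.05, where edgeR called 0% of all genes. Nid1 differed by 0.44 ± 0.24, Lamb1 by 0.65 ± 0.38 and Lama4 by −0.28 ± 0.17 (edgeR adjusted p = 0.799, 0.81 and 0.812). Col4a2 was the member whose ranges were apart, with 241, 243 and 203 FPKM in BAPN+Cilengitide above the 173 to 196 in BAPN, against 10.5% of all genes (2.68% above, 7.82% below). The 95% intervals of the 7 members that passed in no comparison ran from −0.47 to 0.86.

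The inhibitors, a cyclic peptide and a compound known here by a code, could be set against each other only at 6 weeks, with doses not given in the labels. In BAPN+SB273005 against BAPN+Cilengitide 0 of 10 members passed with edgeR, DESeq2 and limma, and 0 had an unadjusted p under 0.05, where edgeR called 0% of all genes. Nid1 differed by 0.13 ± 0.25 (95% interval −0.40 to 0.66), Lamb1 by 0.13 ± 0.38 (−0.70 to 0.96) and Lama4 by 0.07 ± 0.17 (−0.28 to 0.43). With the library set as a term, this comparison rests on BAPN+SB273005 replicate 4. Lamb1 then turned to −0.37 ± 0.59, while Nid1 was at 0.05 ± 0.38 and Lama4 at 0.31 ± 0.24. These intervals do not show that the inhibitors act alike. Lamb2 was the member with FPKM ranges apart, below in BAPN+SB273005, against 6.53% of all genes (2.66% above, 3.87% below). In CPM with TMM scaling its ranges overlapped, reaching 1037 in BAPN+SB273005 and starting at 1020 in BAPN+Cilengitide.

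Ratios within a library do not depend on scaling between libraries. The Lamb1 to Lamb2 ratio, on the length-matched scale, was 0.130, 0.158, 0.0553 and 0.0523 in BAPN+SB273005, 0.101, 0.0544 and 0.0447 in BAPN+Cilengitide, 0.0567, 0.0392, 0.0288 and 0.066 in BAPN, and 0.0202, 0.0262 and 0.0318 in PBS. Lamb2 exceeded Lamb1 in every library, and both inhibitor groups were above PBS. The Lama4 to Lama5 ratio averaged 0.798 ± 0.0592 in BAPN+SB273005, 0.644 ± 0.105 in BAPN+Cilengitide, 0.760 ± 0.0937 in BAPN and 1.04 ± 0.0835 in PBS (SD, n = 4, 3, 4 and 3), and every BAPN-fed library was below the PBS libraries.

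Over 24 exact two-sided permutation tests of ratios, none passed after Benjamini-Hochberg adjustment. The smallest adjusted p was 0.229, shared by Lamb1 to Lamb2 in BAPN+SB273005 against PBS, by Lama4 to Lama5 in the same comparison and by Lama4 to Lama5 in BAPN+SB273005 against BAPN+Cilengitide. Each had an unadjusted p of 0.0286, the smallest that groups of 4 and 3 allow, and groups of 3 and 3 cannot go below 0.1. With these limits and 24 tests, a single ratio could not pass after adjustment however far its groups stood apart. The Col4a1 to Col4a2 ratio stayed close to parity, at 1.08 ± 0.0931, 1.04 ± 0.0413, 1.06 ± 0.0767 and 0.955 ± 0.0501 in BAPN+SB273005, BAPN+Cilengitide, BAPN and PBS. The Col4a5 to Col4a1 ratio was 0.354 ± 0.134, 0.267 ± 0.0767, 0.342 ± 0.0273 and 0.386 ± 0.06 in those groups.

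**Figure D4:**
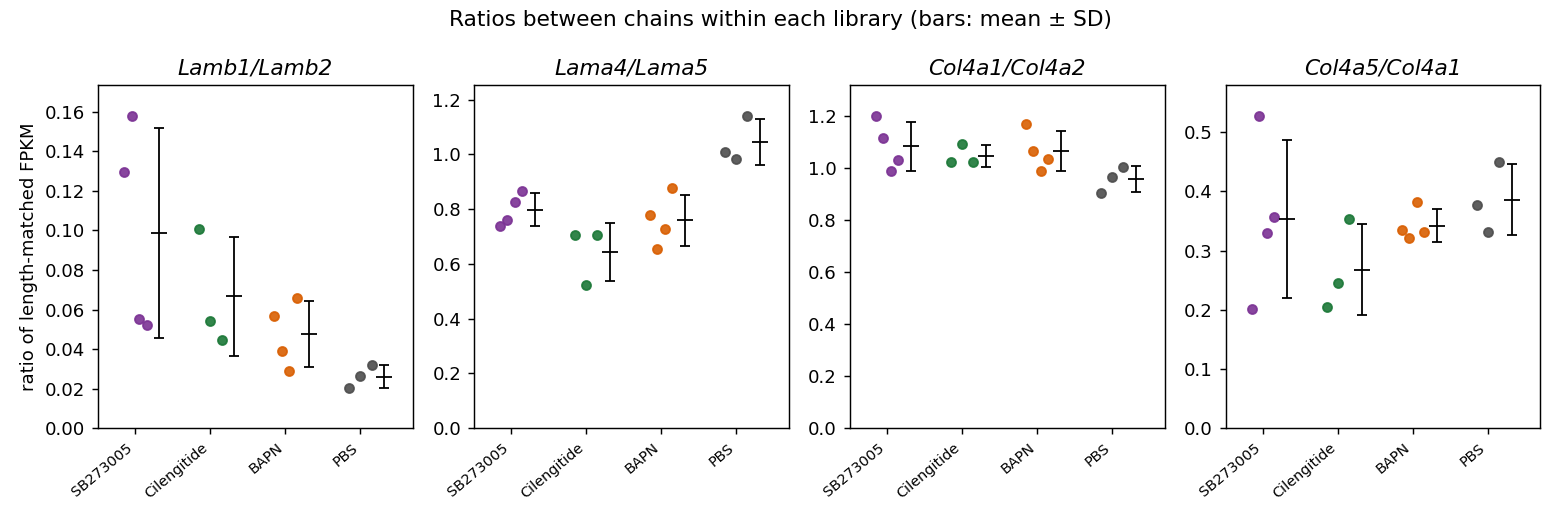
Ratios between chains within each library (points; mean ± SD beside them) on the length-matched scale, in BAPN+SB273005, BAPN+Cilengitide, BAPN and PBS (n = 4, 3, 4 and 3). PBS has the lowest Lamb1/Lamb2 and the highest Lama4/Lama5 ratios, and Col4a1/Col4a2 lies between 0.902 and 1.20 in all 14 libraries.

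Marker sums of macrophages and fibroblasts were higher in every BAPN-fed group than in PBS, as were the means of Nid1 and Lamb1. Lama4 was lower there. Smooth muscle sums lay below PBS in both inhibitor groups and overlapped PBS in BAPN. Endothelial sums overlapped between all groups, but the endothelial markers differed from each other. In BAPN+SB273005, BAPN+Cilengitide and BAPN, 8, 4 and 7 of 10 had log2 differences from PBS above 0. Their medians were 0.78, −0.03 and 0.18, and in BAPN+SB273005 Cdh5 was at 1.53 and Pecam1 at −0.36. The part of any cell type in these results was not tested. Over all genes, 13.2%, 5.58% and 0.233% passed against PBS in BAPN+SB273005, BAPN+Cilengitide and BAPN. The 10 macrophage markers summed to 545 to 1149 FPKM in BAPN+SB273005, 529.9 to 1062 in BAPN+Cilengitide, 335 to 809.5 in BAPN and 162 to 308 in PBS, with 10, 9 and 2 of 10 higher than in PBS in the 3 groups by the adjusted edgeR p. The 10 fibroblast markers summed to 1119 to 1629, 1051 to 1439, 1002 to 1505 and 658 to 972 FPKM, with 3, 2 and 0 of 10 higher than in PBS. Not all of them rose: 6, 7 and 9 of 10 had log2 differences above 0 in the 3 groups. Clec3b was at −0.68 in BAPN+SB273005 and −0.48 in BAPN+Cilengitide. Of the 10 smooth muscle markers, 4 were lower in BAPN+SB273005 than in PBS, where 5.38% of all genes were lower, and 0 passed in the other 2 groups. Log2 differences above 0 were seen for 0, 1 and 1 of 10 in BAPN+SB273005, BAPN+Cilengitide and BAPN. The medians were −1.13, −0.63 and −0.27. The BAPN+SB273005 values include replicate 2, which had the lowest sum, and were not recounted without it. The 10 endothelial markers summed to 93.0 to 194, 75.9 to 131, 83.0 to 140 and 93.0 to 111 FPKM, with 1 higher in BAPN+SB273005. No marker of these 4 lists was listed at 0 throughout a group.

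The related genes, in lists chosen with earlier results of these data known, were counted in the same fit. Over all genes tested, edgeR called 13.2% in BAPN+SB273005 against PBS (7.82% higher, 5.38% lower). In BAPN+Cilengitide against PBS it called 5.58% (3.98% higher, 1.6% lower). A list count near these shares says nothing particular about that list. Of 6 other collagen IV and laminin chains tested, 1 passed: Col4a6, the partner chain of Col4a5, was lower in BAPN+SB273005 than in PBS (24.6 ± 8.04 FPKM against 42.6 ± 3.32, log2 −0.75 ± 0.22, edgeR adjusted p = 0.0408). Lama1, Lama3 and Lamb3 were too low to be tested. Of 16 other secreted components tested, 2 passed in BAPN+SB273005 against PBS, Fbln2 (fibulin 2; 62.7 ± 14.2 against 24.1 ± 4.22 FPKM, adjusted p = 0.00814) and Nid2, the paralog of Nid1 (7.45 ± 4.13 against 3.50 ± 0.499, adjusted p = 0.0483), both higher. In BAPN+Cilengitide against PBS, 2 passed, Smoc2 (53.4 ± 6.62 against 28.7 ± 9.80, adjusted p = 0.0399) and Fbln2 (50.4 ± 6.88 against 24.1 ± 4.22, adjusted p = 0.0463), also higher.

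Among 15 genes for folding, cross-linking and secretion of collagen, 1 rose in BAPN+SB273005 against PBS, where 7.82% of all genes rose. It was the lysyl hydroxylase gene Plod1 (17.7 ± 3.04 against 11.9 ± 0.476 FPKM, edgeR adjusted p = 0.0225). In BAPN+Cilengitide against PBS 2 rose, Loxl2, a lysyl oxidase that cross-links collagen IV (22.4 ± 2.65 against 11.4 ± 2.13, adjusted p = 0.0124), and P3h3, a collagen prolyl hydroxylase family member (88.6 ± 7.68 against 59.1 ± 2.18, adjusted p = 0.0325). The list's median log2 difference was 0.40 in BAPN+SB273005, 0.37 in BAPN+Cilengitide and 0.20 in BAPN against PBS.

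Of 15 receptors tested, 3 rose and 2 fell in BAPN+SB273005 against PBS, where 7.82% of all genes rose and 5.38% fell. The laminin-binding integrin subunit Itga6 was at 4.22 ± 2.35 against 0.618 ± 0.166 FPKM, and the syndecans Sdc3 and Sdc1 at 51.3 ± 18.1 against 13.0 ± 2.38 and 29.2 ± 8.20 against 13.7 ± 1.26 (edgeR adjusted p = 0.00663, 0.00897 and 0.0261). Itga3, another laminin-binding subunit, was at 22.2 ± 7.64 against 39.5 ± 2.06, and the collagen receptor Ddr1, named after its value was seen, at 15.8 ± 3.08 against 22.4 ± 1.96 (adjusted p = 0.0400 and 0.0424). In BAPN+Cilengitide against PBS 3 rose and 0 fell by edgeR: Sdc3 (54.5 ± 19.7 against 13.0 ± 2.38), Itga6 (2.75 ± 1.14 against 0.618 ± 0.166) and Sdc1 (32.1 ± 8.72 against 13.7 ± 1.26; adjusted p = 0.0159, 0.0338 and 0.0369).

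The last list held proteases that act on basement membranes and their inhibitors. Of 13 tested, 7 rose and 1 fell in BAPN+SB273005 against PBS, where 7.82% of all genes rose and 5.38% fell. In BAPN+Cilengitide against PBS 7 rose, where 3.98% of all genes rose. By smallest p, the first were the metalloproteinase genes Mmp19 (6.58 ± 1.30 against 2.46 ± 0.223 FPKM) and Mmp2 (255 ± 98.3 against 71.1 ± 13.9), the cathepsin gene Ctsk (74.8 ± 30.0 against 20.7 ± 1.93) and the inhibitor gene Timp1 (80.3 ± 35.3 against 20.5 ± 0.318) in BAPN+SB273005 (edgeR adjusted p = 0.00668, 0.00957, 0.00815 and 0.00857). In BAPN+Cilengitide they were Ctsl (64.4 ± 4.50 against 36.7 ± 0.563), Timp1 (96.3 ± 33.4 against 20.5 ± 0.318), Mmp3 (52.2 ± 29.6 against 10.3 ± 3.30) and Ctsk (74.9 ± 12.9 against 20.7 ± 1.93; adjusted p = 0.00623, 0.0124, 0.0146 and 0.0175). Mmp9, named after its value was seen, was the 1 that fell in BAPN+SB273005, at 0.468 ± 0.155 against 1.48 ± 0.206 FPKM (adjusted p = 0.0132). Its median over the 14 libraries was 0.764 FPKM. It passed the filter of 1 FPKM through other groups than BAPN+SB273005, so this difference lies near the floor and carries little weight. The median log2 difference of the list was 0.75 in BAPN+SB273005, 0.85 in BAPN+Cilengitide and 0.50 in BAPN.

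In BAPN against PBS, and in the comparisons of inhibitor groups with BAPN or with each other, edgeR called 0 genes of these 5 lists. Of the 17 related results that passed in BAPN+SB273005 against PBS, 9 passed whichever library was left out, and of the 14 in BAPN+Cilengitide against PBS 1 did (Ctsl), while 0 of the 14 passed with the library set as a term. Col4a6, Nid2 and Itga3 each lost the call in 10 of 14 omissions and Ddr1 in 9, and BAPN+SB273005 replicate 2 was among those omissions for Col4a6 and for Sdc1.

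Over the 14 libraries, the gene whose log2(FPKM + 1) followed Col4a1 most closely was Col4a2 (Pearson r = 0.95, and 0.93 without BAPN+SB273005 replicate 2), ahead of Sumf1, Fkbp9, Lhfp and Sap18 (0.94 to 0.93). Without that replicate Col4a2 ranked 2 in likeness to Col4a1. The values for Lamb2, Hspg2 and Lama5 were lower without it. The gene most like Lamb2 was Glg1 (0.96, and 0.72 without it), followed by Aplp2, Rnf216, Cpq and Clstn1, the one most like Hspg2 was Vcp (0.95 and 0.76), followed by Copa, Nfe2l1, Srpr and Ccnd2. The gene most like Lama5 was Tgm2 (0.94 and 0.80), followed by Cltb, Tns1, Plin4 and Cdc42se1. These are descriptions over libraries that share groups and scaling.

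The transcript table shows where the gene levels are uncertain. Nid1 and Col4a2 were assigned almost wholly to a single coding model (99.7% to 99.97% of the transcript FPKM for Nid1 and 99.86% to 99.95% for Col4a2), and Lama4 to a 38-exon model (94.1% or more). Lamb1 was divided between 2 nearly identical 33-exon models of 5784 and 5778 bases, whose shares ran from 1.47% to 99.8% and from 0% to 93.2%. In Lamc1 a short model of 1447 bases took 0% to 61.9%, and in Col4a5 a 21-exon model of 3511 bases took 40.8% to 76.7%. The gene-level counts of all 10 members equal the sums over their transcripts, so these divisions do not enter the tests above.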

How the data were processed

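Bulk RNA-seq of ascending aorta was deposited as whole-series tables of 32289 genes and 94714 transcripts. Reads were processed with HISAT2 2.2.1, StringTie 2.1.6 and the mm10 build, per the submitters' processing notes. No annotation release is given in the sources used here. The authors deposited FPKM and estimated counts per gene and transcript, and the deposited estimated counts are whole numbers. Gene FPKM uses 1 length per gene, so levels were compared between genes after restating FPKM over the longest coding transcript.

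Counts were tested with edgeR 4.0.16 (R 4.3.3; quasi-likelihood, TMM) in 1 fit of all 14 libraries, for the 13294 genes that reached 1 FPKM in 3 libraries or more, with Benjamini-Hochberg adjustment over all of them and a threshold of 0.05. Total counts per library ran from 49027885 to 72584877. The procedure was run on simulated counts for BAPN against PBS only, with no library set and no outlying library built in. That run therefore cannot decide how the procedure behaves with those features of the data. Alternatives were DESeq2 1.42.0, limma 3.58.1 on log2(FPKM + 1) and log2(FPKM + 0.1), DESeq2 size factors, other filters, only the groups compared, a replicate block, the library set, and each library left out. Ratios within a library were compared by exact permutation.

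The 18 pairs of libraries within a group differed by far more than sampling noise (lowest chi-square over its degrees of freedom 59.5). Each library was counted as 1 sample. Differences in preparation alone can exceed sampling noise, so this check cannot decide whether libraries came from separate animals. The members and lists were chosen with earlier results of these data known. All 10 members were named. Of each related list, up to 4 genes per comparison were named, those with the smallest p among the called, and exceptions are marked. Alternatives for related genes were added after seeing the data.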

Additional observations from a re-analysis of the deposited data

Results flagged for a closer look

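Of 28 groups of 4 libraries tested for a sample far from the others, 3 stood out, where chance gives about 1 in 20. Col4a5 in BAPN+SB273005 had its highest library, replicate 4, at 72.5 FPKM against 52.1 to 54.8 in the other 3. Lamb2 in BAPN+SB273005 had its lowest library, replicate 2, at 63.2 FPKM against 139 to 149 in the other 3. Lamc1 in BAPN had its highest library, replicate 1, at 49.7 FPKM against 46.0 to 46.2 in the other 3.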

How the results depend on the processing

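No called member result reversed under any alternative. Groups of 3 or 4 libraries, and a library set that cannot be told apart from the group in 2 comparisons with PBS, limit these results, and where a cause of a shift is not named it was not tested.

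Counts over all genes moved as follows. With DESeq2, BAPN against PBS gave 480 in place of 31, BAPN+Cilengitide against PBS 1465 in place of 742, BAPN+Cilengitide against BAPN 21 in place of 0, BAPN+SB273005 against BAPN 395 in place of 4 and BAPN+SB273005 against BAPN+Cilengitide 39 in place of 0. With an FPKM of 5 or more, BAPN against PBS gave 70 and BAPN+SB273005 against BAPN 15. With no filter, which tested 32289 genes, BAPN against PBS gave 3, BAPN+Cilengitide against PBS 421 (0 members), BAPN+SB273005 against PBS 1006 (2 members, without Lama4) and BAPN+SB273005 against BAPN 0. With limma and a pseudocount of 1, BAPN against PBS and BAPN+SB273005 against BAPN gave 15 each, and with 0.1 they gave 72 and 14, and with either pseudocount BAPN+Cilengitide against PBS kept 2 members, without Lamb1. With only the groups compared, BAPN against PBS gave 105, BAPN+SB273005 against PBS 534 (2 members, without Lama4) and BAPN+SB273005 against BAPN 0. Within libraries of one set, BAPN+SB273005 against PBS gave 532 (1 member), against BAPN 32 and against BAPN+Cilengitide 34. The last 2 rest on BAPN+SB273005 replicate 4 alone, which is assumed to vary like the other groups. With the set as a term, BAPN against PBS gave 3, BAPN+Cilengitide against PBS 5 (0 members), and BAPN+SB273005 against BAPN and against BAPN+Cilengitide 12 each. The set effect in that fit comes from BAPN+SB273005 replicate 4 against the other replicates of its group.

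Replicate numbers were not taken to pair the samples in the main fit, since the labels tie them to nothing shared. Same-numbered libraries of different groups were nonetheless more alike. Of 19 such pairs 12 correlated above 0.1 (−0.16 to 0.34, median 0.15), against 4 of 54 pairs with other numbers (median −0.04). Something shared by replicate number is therefore possible, and its source was not tested. With the replicate block, BAPN against PBS gave 141 genes, BAPN+SB273005 against BAPN 20, BAPN+Cilengitide against PBS 2 members (Lamb1 at 1.44, edgeR adjusted p = 0.0566), Lamb2 in BAPN against PBS −0.027 and Lama4 in BAPN+SB273005 against BAPN+Cilengitide −0.0073.

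Log2 differences near 0 changed sign. In BAPN against PBS, Col4a5 was −0.00065 with DESeq2 and with its size factors, −0.013 with no filter and −0.0065 with only the groups compared, and with the set as a term Col4a1 was −0.016, Col4a2 −0.28, Col4a5 −0.43, Lama5 −0.093 and Lamb2 −0.31. In BAPN+Cilengitide against PBS, Lama5 was −0.020 and −0.019 with limma (pseudocounts 0.1 and 1), and with the set as a term Lama5 was −0.14, Lamb2 −0.10 and Hspg2 −0.16. Lama4 in BAPN+SB273005 against BAPN was 0.026 within one set (1 BAPN+SB273005 library) and 0.030 with the set as a term, and Lamb1 in BAPN+SB273005 against BAPN+Cilengitide was −0.38 (again 1 library) and −0.37.

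Leaving out 1 library at a time gave 2 to 186 genes in BAPN against PBS, 109 to 1249 (0 to 3 members) in BAPN+Cilengitide against PBS, 498 to 1988 (1 to 3 members) in BAPN+SB273005 against PBS, 0 to 1 in BAPN+Cilengitide against BAPN, 0 to 79 in BAPN+SB273005 against BAPN and 0 to 15 in BAPN+SB273005 against BAPN+Cilengitide. Log2 differences from PBS then ran, in BAPN, from −0.09 to 0.22 for Col4a5, −0.018 to 0.14 for Lama5 and −0.0042 to 0.075 for Col4a2. In BAPN+Cilengitide they ran from −0.17 to 0.17 for Col4a5, −0.035 to 0.12 for Hspg2 and −0.010 to 0.058 for Lama5. In BAPN+SB273005 they ran from −0.10 to 0.32 for Col4a1, −0.21 to 0.14 for Col4a2, −0.13 to 0.16 for Lamb2, −0.36 to 0.014 for Hspg2 and −0.26 to 0.079 for Col4a5. In BAPN+SB273005 against BAPN+Cilengitide they ran from −0.21 to 0.52 for Lamb1, −0.043 to 0.26 for Nid1 and −0.039 to 0.20 for Lama4. The Col4a1 to Col4a2 log2 ratio ran from −0.058 to 0.023 in BAPN+Cilengitide against BAPN, −0.026 to 0.070 in BAPN+SB273005 against BAPN and −0.0036 to 0.089 in BAPN+SB273005 against BAPN+Cilengitide. The Col4a5 to Col4a1 log2 ratio ran from −0.25 to 0.21 in BAPN+SB273005 against BAPN and −0.41 to 0.047 in BAPN+SB273005 against PBS.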
